A study of Mus musculus with 12 samples.

Results

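The genes of mitochondrial complex III and of the ATP synthase, with their assembly factors and regulators, were compared between 6 ac-WT and 6 ac-CYB5R3-KO hearts, each from a separate mouse. They were all rows of the deposited count table whose Ensembl identifier belongs to a mouse protein-coding gene named Uqcr, Uqcc or Atp5 followed by further letters, together with Cyc1, Cycs, Bcs1l, Ttc19, Atpaf1, Atpaf2 and Atpif1, which gave 37 of 53700 genes. Among them were 9 subunits of complex III, 17 subunits of the ATP synthase, 5 assembly factors of complex III, 2 of the ATP synthase, cytochrome c, the inhibitor Atpif1 and 2 genes that carry an older Atp5 name. All 37 passed the filter on low counts. Symbols are those of RefSeq for GRCm38.p6, so Atp5a1 and Atp5b are the genes now called Atp5f1a and Atp5f1b, Atp5g1 to Atp5g3 are Atp5mc1 to Atp5mc3, and Atpif1 is Atp5if1.

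Both groups were male, carried 1 copy of Myh6-CreERT2, a Cre recombinase driven by a cardiomyocyte promoter and activated by tamoxifen, and at 10 to 13 weeks of age began 5 daily doses of tamoxifen (33 mg/kg/d). They differed at Cyb5r3, which was wild-type in ac-WT (CYB5R3wt/wt) and floxed in ac-CYB5R3-KO (CYB5R3fl/fl) mice, all of a mixed FVB/B6 background backcrossed 3 times to C57BL/6J. Whole hearts were taken 5 days after treatment, and hearts without Cre or without tamoxifen were not analysed here. The Cre acts in cardiomyocytes, whereas the libraries hold RNA from every cell of the heart, so fewer cells of a type and less RNA per cell cannot be told apart.

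Complex III, the cytochrome bc1 complex, takes electrons from ubiquinol and hands them through cytochrome b, the Rieske iron-sulfur protein and cytochrome c1 to soluble cytochrome c, moving protons across the inner mitochondrial membrane as it does so. The ATP synthase lets protons back through a membrane rotor, the ring of c-subunits, whose rotation drives ATP formation in the catalytic F1 head, while a peripheral stalk holds the head still. Cytochrome b and the a-subunit that borders the rotor are made from mitochondrial DNA, and nearly all other parts come from the nuclear genes described here. The beating heart depends on this pathway for most of its ATP.

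Libraries held between 43393183 and 53754284 counts. Cyb5r3 itself was at 126 ± 38.4 CPM (counts scaled to a common library size with TMM factors, mean ± SD, n = 6) in ac-WT and 53.7 ± 9.07 CPM (n = 6) in ac-CYB5R3-KO hearts, and no heart of one group reached the range of the other. Its log2 fold change was -1.22 (-1.41 without ac-WT mice 2 and 3, SE 0.191 with all hearts, adjusted p = 0.0450, quasi-likelihood test of edgeR with Benjamini-Hochberg adjustment over 17847 genes). Among the ac-WT libraries 2 stood apart, which touches every result below. Mice 2 and 3 of that group had TMM scaling factors of 0.570 and 0.723, against 0.988 to 1.22 in the other 10 libraries, and mitochondrially encoded genes took 35.3% and 34.8% of their counts, against 24.0% to 30.1% in the others. In TMM-scaled CPM mouse 2 was the highest ac-WT heart for 34 of the 37 genes, at a median of 1.85 times the mean of ac-WT mice 1, 4, 5 and 6. Mouse 3 stood at a median of 1.36 times that mean. Before TMM scaling, the 37 genes took 1.49% and 1.36% of all counts in mice 2 and 3, within the 1.36% to 1.59% of ac-WT mice 1, 4, 5 and 6. After it the shares were 2.61% and 1.88%, against 1.30% to 1.42%. These 2 hearts are called high below by their scaled values. Many fold changes, list medians and differences within a heart are therefore also given without these 2 hearts.

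Transcripts of both complexes were lower in ac-CYB5R3-KO hearts, though none of the 37 genes passed the adjusted threshold in edgeR. Of the 37 genes, 36 had a lower fitted level and 27 were lower at an unadjusted p under 0.05, whereas 51.2% of all tested genes were lower and 9.73% were lower at that threshold. In 13 genes (35.1%) the 6 ac-CYB5R3-KO hearts all lay below the 6 ac-WT hearts in TMM-scaled CPM, which was so for 1.04% of all genes. This separation depends on the scaling. Summed over the 37 genes, the share of the TMM-scaled library was 1.30% to 2.61% in ac-WT and 0.924% to 1.29% in ac-CYB5R3-KO hearts. The share of raw counts overlapped, at 1.36% to 1.59% and 1.13% to 1.45%. The lowest adjusted p among the 37 genes was 0.173 in edgeR, whereas 0.0616% of all genes were lower at an adjusted p under 0.05. DESeq2, run as an alternative, called 9 of the 37 as lower at its adjusted p of 0.05, and 1.68% of all genes. These were Cyc1, Uqcrh, Uqcrq, Atp5d, Atp5o, Atp5g2, Atp5g3, Atp5k and Atp5mpl, with adjusted p from 0.0136 to 0.0495. In 1 simulation DESeq2 called 38 unchanged genes, beyond its nominal rate, and edgeR called 7. The counts were drawn with dispersions fitted by edgeR, which may favour edgeR, so the error rate of DESeq2 in these data was not measured. The 9 calls may carry less weight than their adjusted p states.

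The differences were smaller without the 2 high ac-WT hearts. The median log2 fold change over the 37 genes was -0.57 with all hearts and -0.25 without ac-WT mice 2 and 3, beside -0.01 and 0.02 for all genes tested. Without those mice, 17 of the 26 subunits were still lower at an unadjusted p under 0.05, against 4.54% of all genes and 0 of the 11 other genes. Genes that stand apart from 6 ac-WT hearts stand apart from any 4 of them, and none of the 37 joined the 13 when the 2 were left out, while the share of all genes went to 1.25%. With scaling by total counts in place of TMM factors, the median of all genes moved to 0.26, 29 of the 37 genes were lower and 8 higher, and 36 of the 37 remained below the median of all genes as they did with TMM.

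**Figure D1:**
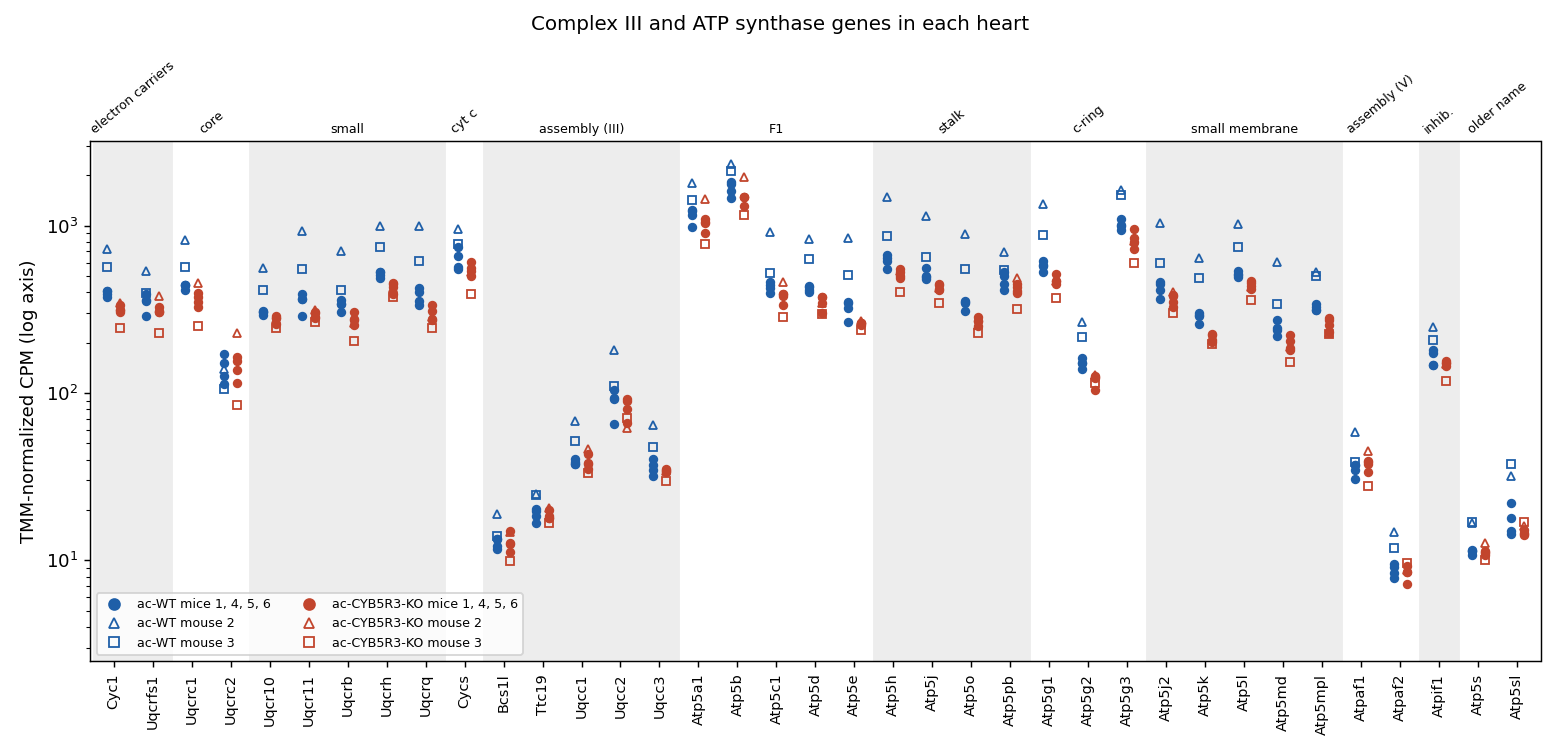
TMM-normalized CPM (log axis) of each of the 37 genes in every heart, ordered by role, with ac-WT in blue and ac-CYB5R3-KO in red and mice 2 and 3 of each group as open symbols. The open blue triangle of ac-WT mouse 2 tops 34 of the genes, and the red points of 13 genes all lie below the blue ones.

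Cytochrome c1, encoded by Cyc1 (chr15:76173953-76176364 in NCBIM37), was among the genes whose groups did not overlap. It ranged from 375 to 728 CPM (median 407) in ac-WT and from 244 to 347 CPM (median 313) in ac-CYB5R3-KO hearts. The highest ac-CYB5R3-KO heart was below the lowest ac-WT heart, and the log2 fold change was -0.63 (SE 0.173, adjusted p = 0.184, edgeR). The Rieske protein gene Uqcrfs1, its neighbour in the electron path, ranged from 288 to 538 CPM (median 375) and from 228 to 378 CPM (median 308), so that 1 ac-CYB5R3-KO heart was under the ac-WT range. Its log2 fold change was -0.33 (SE 0.156, unadjusted p = 0.0541, adjusted p = 0.348, edgeR). Without the 2 high ac-WT hearts the log2 fold changes were -0.34 (SE 0.105) for Cyc1 and -0.16 (SE 0.136) for Uqcrfs1.

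The core proteins, a pair of large subunits related to the mitochondrial processing peptidase, gave values of opposite sign. Uqcrc1 ranged from 415 to 822 CPM (median 444) in ac-WT and from 251 to 457 CPM (median 361) in ac-CYB5R3-KO hearts. All ac-CYB5R3-KO hearts but mouse 2 lay under the ac-WT range, and the log2 fold change was -0.54 (SE 0.191). Uqcrc2 (chr7:127778690-127802992 in NCBIM37) ranged from 105 to 171 CPM (median 132) in ac-WT and from 85.2 to 229 CPM (median 145) in ac-CYB5R3-KO hearts. It was the 1 gene of the 37 with a higher fitted level (log2 fold change 0.14, SE 0.205, adjusted p = 0.775, edgeR), and without ac-CYB5R3-KO mouse 2, its highest heart, the value was -0.03. With the 2 high ac-WT hearts left out, Uqcrc1 was at -0.26 (SE 0.142) and Uqcrc2 at 0.09 (SE 0.231). The ratio of Uqcrc2 to Uqcrc1 within a heart, which no scaling of the library can move, was 0.168 to 0.386 in ac-WT hearts against 0.339 to 0.502 in ac-CYB5R3-KO, and its lowest values were those of ac-WT mice 2 and 3. The other 4 ac-WT hearts had ratios of 0.273 to 0.386.

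All 5 small subunits of complex III, which surround the catalytic core, were lower at an unadjusted p under 0.05, with a median log2 fold change of -0.64. Uqcrq binds beside cytochrome b. It ranged from 337 to 991 CPM (median 411) in ac-WT and from 246 to 333 CPM (median 280) in ac-CYB5R3-KO hearts, without overlap, at a log2 fold difference of -0.86 (SE 0.243, adjusted p = 0.184, edgeR). Uqcr10 was at 293 to 559 CPM (median 305) and at 245 to 288 CPM (median 277), also without overlap, but the groups came close and the log2 fold change was -0.42 (SE 0.161). Uqcr11, Uqcrb and Uqcrh, the hinge protein, lay between them at -0.73, -0.64 and -0.59. Without ac-WT mice 2 and 3 these 5 genes lay between -0.38 for Uqcrq and -0.14 for Uqcr10, with a median of -0.28. In all, 7 of the 9 complex III subunits were lower at an unadjusted p under 0.05, and 5 without ac-WT mice 2 and 3.

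Cytochrome c, the soluble carrier that takes electrons away from complex III, ranged from 551 to 949 CPM (median 697) in ac-WT and from 392 to 603 CPM (median 531) in ac-CYB5R3-KO hearts. Of the ac-CYB5R3-KO hearts 4 were under the ac-WT range, and the log2 fold change of Cycs was -0.44 (SE 0.156, adjusted p = 0.232, edgeR), or -0.26 (SE 0.132) without the 2 high ac-WT hearts. This value is uncertain, since 10 stretches of the genome match its coding sequence at 90% identity or more over at least 80% of its length, and the 5 of them that are annotated genes in the table held 125% of its counts.

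All 17 ATP synthase subunits were lower, 15 of them at an unadjusted p under 0.05, with a median log2 fold change of -0.62 beside -0.59 for the complex III subunits. Leaving out ac-WT mice 2 and 3, these medians were -0.29 and -0.26, and 12 and 5 subunits were lower at that threshold. The plot of fold changes by role shows that both complexes covered nearly the same range apart from Uqcrc2. Within a heart, the mean log2 CPM of ATP synthase subunits exceeded that of complex III subunits by 0.51 ± 0.0719 (SD, n = 6) in ac-WT and by 0.42 ± 0.0593 in those of ac-CYB5R3-KO (SD, n = 6), with ranges of 0.41 to 0.60 and 0.35 to 0.50 that overlapped. The other 4 ac-WT hearts had a mean of 0.46.

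**Figure D2:**
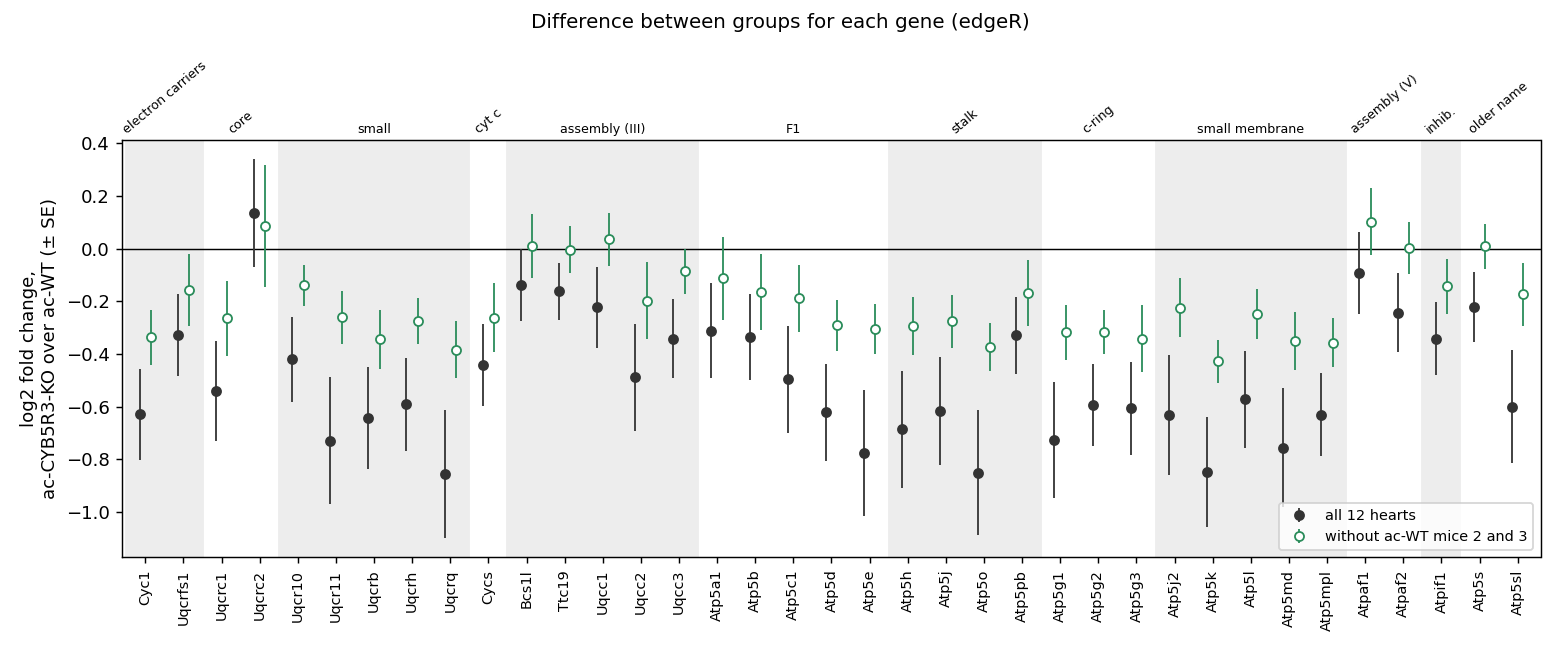
Log2 fold change of ac-CYB5R3-KO over ac-WT for each gene, from edgeR, with an SE derived from the F statistic of its test. Fits are with all 12 hearts (dark) and without ac-WT mice 2 and 3 (green, open), in the same order of roles. The dark points of the subunits lie between -0.86 and -0.31 apart from Uqcrc2, and the green points of the assembly factors lie between -0.20 and 0.10.

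The catalytic head showed its smallest differences in its largest subunits. The beta subunit, which holds the catalytic sites, is encoded by Atp5b (chr10:127520329-127527447 in NCBIM37) and ranged from 1456 to 2347 CPM (median 1803) in ac-WT and from 1159 to 1940 CPM (median 1473) in ac-CYB5R3-KO hearts. The alpha subunit gene Atp5a1 ranged from 977 to 1807 CPM (median 1224) and from 780 to 1436 CPM (median 1047). For each of these partners 2 ac-CYB5R3-KO hearts were under the ac-WT range and the others overlapped it, and the log2 fold changes were -0.33 (SE 0.163, adjusted p = 0.359) and -0.31 (SE 0.179, adjusted p = 0.438, both edgeR). Their ratio within a heart was 0.698 ± 0.0400 (SD, n = 6) Atp5a1 counts per Atp5b count in ac-WT and 0.709 ± 0.0266 in those of ac-CYB5R3-KO (SD, n = 6), again within the spread. The smaller head subunits gave -0.50 for Atp5c1, the gamma shaft, and -0.62 and -0.77 for Atp5d and Atp5e, the delta and epsilon subunits at the foot of that shaft. Atp5d had the smallest p of the 5 and no overlap, at 398 to 828 CPM (median 433) in ac-WT and 297 to 377 CPM (median 345) in ac-CYB5R3-KO hearts. Leaving out the 2 high ac-WT hearts, the values were -0.17 (SE 0.144) for Atp5b, -0.11 (SE 0.159) for Atp5a1, -0.19 for Atp5c1, -0.29 for Atp5d and -0.31 for Atp5e.

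In the peripheral stalk, Atp5o, the oligomycin-sensitivity subunit that joins stalk and head, ranged from 307 to 896 CPM (median 351) in ac-WT and from 227 to 283 CPM (median 262) in ac-CYB5R3-KO hearts. These ranges did not overlap, and the log2 fold change was -0.85 (SE 0.239, adjusted p = 0.184, edgeR). Atp5pb, the b-subunit that forms the long arm of the stalk, was at 414 to 700 CPM (median 514) and 319 to 489 CPM (median 420), which overlapped, with a log2 fold change of -0.33 (SE 0.146). Atp5h, the d-subunit, and Atp5j, coupling factor 6, gave -0.69 and -0.62, both without overlap. On leaving out the 2 high ac-WT hearts, the 4 stalk genes lay between -0.37 for Atp5o and -0.17 for Atp5pb.

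With all hearts, the membrane part held the 3 smallest p-values of the 37 genes, those of Atp5k, Atp5mpl and Atp5g2. All 8 of its genes, 3 for the c-subunit and 5 for small subunits, were lower at an unadjusted p under 0.05 with all hearts, and 7 were without ac-WT mice 2 and 3. Atp5k, the e-subunit that sits where ATP synthase dimers meet, came first among these. It ranged from 259 to 643 CPM (median 296) in ac-WT and from 196 to 225 CPM (median 207) in ac-CYB5R3-KO hearts, which did not overlap, at a log2 fold difference of -0.85 (SE 0.209, adjusted p = 0.173, edgeR). Atp5j2, the f-subunit, had the largest p of the class and overlapping groups, at 363 to 1036 CPM (median 452) and 298 to 403 CPM (median 365), with a log2 fold change of -0.63 (SE 0.227). Atp5l, the g-subunit, lay at -0.57, and the small accessory proteins Atp5md and Atp5mpl at -0.76 and -0.63. Without ac-WT mice 2 and 3 these 5 lay between -0.43 (SE 0.0817) for Atp5k and -0.22 (SE 0.113) for Atp5j2. Within a heart, the mean log2 CPM of the 5 head subunits exceeded that of the 8 membrane subunits by 0.72 ± 0.0760 (SD, n = 6) in ac-WT and by 0.87 ± 0.132 in those of ac-CYB5R3-KO (SD, n = 6), and the ranges of 0.62 to 0.81 and 0.71 to 1.10 overlapped. The other 4 ac-WT hearts had a mean of 0.77.

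A trio of genes encodes the same mature c-subunit behind different import sequences. Atp5g3 ranged from 934 to 1640 CPM (median 1054) in ac-WT and from 601 to 955 CPM (median 805) in ac-CYB5R3-KO hearts, with all but mouse 6 of ac-CYB5R3-KO under the ac-WT range. Atp5g1 ranged from 527 to 1350 CPM (median 596) and from 369 to 511 CPM (median 465), and Atp5g2 from 140 to 264 CPM (median 156) and from 104 to 127 CPM (median 123). Neither of these overlapped between groups, and the log2 fold changes of the 3 genes lay close together at -0.61 (SE 0.176), -0.73 (SE 0.220) and -0.59 (SE 0.155), with adjusted p of 0.186, 0.194 and 0.173 (edgeR). They were -0.34, -0.32 and -0.32 without the 2 high ac-WT hearts. No difference in their mix beyond the spread between mice was found. Atp5g3 made up 56.9% ± 3.64 (SD, n = 6) of the summed counts in ac-WT and 57.7% ± 1.62 in those of ac-CYB5R3-KO (SD, n = 6), which differed by 0.768 percentage points (exact permutation test, two-sided, p = 0.695, adjusted over 3 shares p = 0.695). The share of Atp5g1 was 34.6% ± 3.91 and 33.5% ± 1.13 (exact permutation p = 0.597, adjusted p = 0.695), and that of Atp5g2 was 8.53% ± 0.470 and 8.86% ± 0.940 (exact permutation p = 0.524, adjusted p = 0.695). Annotated near-identical copies of Atp5g1 and Atp5g2 held 48.3% and 155% of the counts of these genes, and none was found for Atp5g3, so the shares themselves depend on how reads were divided. With the copies added in, which was chosen after seeing the data, Atp5g3 took 43.8% and 44.4% in the 2 groups.

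**Figure D3:**
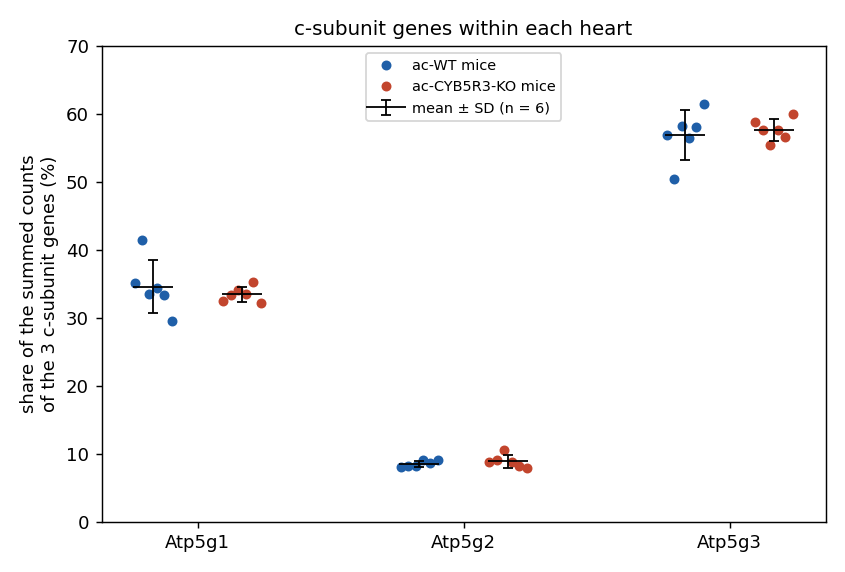
Share of each c-subunit gene in the summed counts of the 3 genes (percent) in every ac-WT (blue) and ac-CYB5R3-KO (red) heart, with the mean and SD of each group of 6 in black. The groups overlap for each gene, and ac-WT mouse 2 has the highest Atp5g1 share (41.5%) and the lowest Atp5g3 share (50.4%).

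The 3 c-subunit genes are shown here by the 120 bases before their RefSeq start (GRCm38.p6, minus strand, 5′ to 3′), because the 3 genes gave similar fold changes and their promoters differ in the short words searched. Atp5g1 is at chr11:96075632-96075751, Atp5g2 at chr15:102671048-102671167 and Atp5g3 at chr2:73911327-73911446. Capitals mark matches to the words given in the next paragraph, which are the NRF1 palindrome with the overlapping TGCGCA in Atp5g2 and the ERR word, on the other strand, in Atp5g3.
Atp5g1: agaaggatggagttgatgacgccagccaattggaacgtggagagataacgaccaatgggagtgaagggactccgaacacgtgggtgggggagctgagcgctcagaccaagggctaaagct
Atp5g2: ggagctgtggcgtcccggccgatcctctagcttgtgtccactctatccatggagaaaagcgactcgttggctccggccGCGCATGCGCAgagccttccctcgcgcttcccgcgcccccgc
Atp5g3: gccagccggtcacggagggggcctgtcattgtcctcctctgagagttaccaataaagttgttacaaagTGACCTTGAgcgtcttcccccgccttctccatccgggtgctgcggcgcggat

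A promoter entry was found for 29 of the 37 genes, each reaching from 250 bases before to 50 after the start. Words known as binding sequences of factors that act on mitochondrial genes were searched on both strands. The NRF1 word CGCATGCGC was in 7 of the 29 (24.1%) and in 3.51% of the promoters of tested genes, and 3 of the 7 held the full palindrome, with a further G in front, found in 1.95% of tested promoters. The shorter TGCGCA, which overlaps it, was in 6 (20.7% against 13.7%). The ERR word TCAAGGTCA was in 1, Atp5g3 (3.45% against 0.283%), the ETS word CCGGAAGT in 4 (13.8% against 7.59%) and the YY1 word AAGATGGCG in 2 (6.90% against 2.91%). Any of them was in 16 of the 29 (55.2%), against 23.5% of tested promoters.

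A further 3 promoters, of the same 120 bases, show the range of the genes that hold a word. They belong to Atp5k, the gene with the smallest p (chr5:108434400-108434519, minus strand), Uqcrh, a small subunit of complex III (chr4:116075071-116075190, minus strand), and Bcs1l, an assembly factor whose level hardly differed (chr1:74588169-74588288, plus strand). Capitals mark the NRF1 palindrome in Atp5k and the ETS word in Uqcrh and Bcs1l.
Atp5k: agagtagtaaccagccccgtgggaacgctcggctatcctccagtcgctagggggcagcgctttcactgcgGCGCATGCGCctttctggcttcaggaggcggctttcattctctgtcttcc
Uqcrh: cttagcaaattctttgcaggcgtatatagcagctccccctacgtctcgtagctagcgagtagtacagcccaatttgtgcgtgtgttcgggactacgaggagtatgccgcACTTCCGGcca
Bcs1l: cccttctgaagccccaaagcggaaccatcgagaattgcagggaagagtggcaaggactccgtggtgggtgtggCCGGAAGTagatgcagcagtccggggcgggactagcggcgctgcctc

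The assembly factors had smaller fold changes than most of the subunits they serve. Their levels per kilobase of coding transcript in ac-WT hearts were also low, between 5.60 CPM per kb for Atpaf2 and 51.4 CPM per kb for Uqcc3, with Uqcc2 higher at 239. Subunits lay between 72.5 CPM per kb for Uqcrc2 and 1671 for Atp5g3. Of the 7 factors, 2 were lower at an unadjusted p under 0.05, the median log2 fold change was -0.22, and in none did the groups stand apart. Without ac-WT mice 2 and 3 the median was 0.00 and none was lower at that threshold. With scaling by total counts 5 of the 7 had a higher fitted level, and their median was -0.14 relative to that of all genes.

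Bcs1l, the AAA protein that inserts the Rieske subunit, ranged from 11.8 to 18.8 CPM (median 13.4) in ac-WT and from 9.86 to 14.9 CPM (median 12.5) in ac-CYB5R3-KO hearts, and had the largest p of the complex III factors (log2 fold change -0.14, SE 0.135, adjusted p = 0.645, edgeR). Uqcc2, which acts early on cytochrome b, had the smallest with all hearts, at 65.6 to 182 CPM (median 99.1) and 62.0 to 92.3 CPM (median 75.6), with a log2 fold difference of -0.49 (SE 0.203, adjusted p = 0.288, edgeR). Its groups overlapped, as did those of all these factors. Uqcc3 gave -0.34, Uqcc1 -0.22 and Ttc19, which clears fragments of the Rieske protein, -0.16. Leaving out ac-WT mice 2 and 3, Uqcc2 was at -0.20 (SE 0.147), Bcs1l at 0.01 (SE 0.122) and the others between -0.09 and 0.04.

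The chaperones of the head, Atpaf1 for the beta and Atpaf2 for the alpha subunit, gave log2 fold changes of -0.09 (SE 0.156) and -0.24 (SE 0.150), or 0.10 (SE 0.126) and 0.00 (SE 0.0983) without the 2 high ac-WT hearts. Atpaf1 ranged from 30.5 to 58.8 CPM (median 37.0) in ac-WT and from 27.7 to 44.8 CPM (median 38.3) in ac-CYB5R3-KO hearts, so the medians were in the opposite order to the fitted means. Atpaf2 ranged from 7.86 to 14.8 CPM (median 9.31) and from 7.21 to 9.59 CPM (median 8.65). Atpif1, the peptide that blocks the enzyme from running backwards, ranged from 146 to 249 CPM (median 177) in ac-WT and from 118 to 155 CPM (median 150) in ac-CYB5R3-KO hearts, with a log2 fold difference of -0.34 (SE 0.138, adjusted p = 0.274, edgeR), or -0.14 (SE 0.104) without the 2 high ac-WT hearts. Its ratio to Atp5b within a heart was 0.0995 ± 0.0157 (SD, n = 6) and 0.100 ± 0.0127 (SD, n = 6), a difference smaller than the spread between mice.

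The last 2 genes keep an older Atp5 name and were counted neither as subunits nor as assembly factors. Atp5sl, now Dmac2, ranged from 14.5 to 37.5 CPM (median 20.0) in ac-WT and from 14.1 to 17.0 CPM (median 14.9) in ac-CYB5R3-KO hearts, at a log2 fold change of -0.60 (SE 0.216) that became -0.17 without ac-WT mice 2 and 3, its 2 highest hearts. Atp5s, now Dmac2l, was at 10.7 to 17.0 CPM (median 11.5) and 10.0 to 12.8 CPM (median 11.2), with a log2 fold change of -0.22 (SE 0.133) that became 0.01.

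The gap between subunits and assembly factors can be read within each heart, where library scaling cancels. The mean log2 CPM of the 26 subunits exceeded that of the 7 assembly factors by 4.05 ± 0.127 (SD, n = 6) in ac-WT and by 3.74 ± 0.0765 in those of ac-CYB5R3-KO (SD, n = 6). All ac-WT hearts but 1 exceeded the ac-CYB5R3-KO range, the exception being mouse 4 at 3.83, next to ac-CYB5R3-KO mouse 6 at 3.84. The 2 high ac-WT hearts topped this measure as well, at 4.21 and 4.12, and the other 4 had a mean of 3.99.

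**Figure D4:**
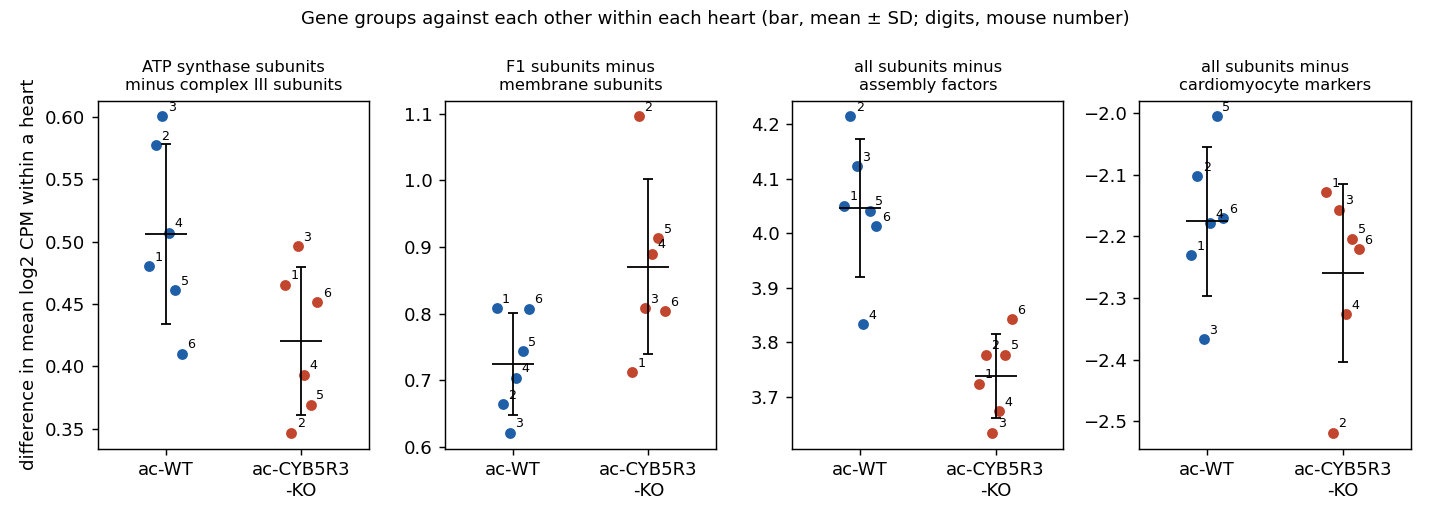
Differences in mean log2 CPM between gene groups within each ac-WT (blue) and ac-CYB5R3-KO (red) heart, with the mouse number beside each point and the mean and SD of 6 in black. Subunits against assembly factors separate the groups except for ac-WT mouse 4 (3.83) and ac-CYB5R3-KO mouse 6 (3.84), and the other 3 measures overlap between groups.

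Transcript length ran along with the differences. The 19 genes whose median coding transcript is shorter than 800 bp had a median log2 fold change of -0.63, the 8 from 800 to 1500 bp one of -0.42 and the 9 from 1500 to 3000 bp one of -0.22, with Cycs (3123 bp) alone above these at -0.44. The 13856 tested genes with a known length gave -0.12, -0.03 and 0.02 in the same ranges. Without ac-WT mice 2 and 3 the medians in these ranges were -0.31, -0.18 and 0.00 for the genes described here and -0.04, 0.01 and 0.04 for all genes, and Cycs was at -0.26. Across the 26 subunits the Spearman correlation of length with log2 fold change was 0.70, and 0.57 without ac-WT mice 2 and 3. The points share the same 12 libraries, and over all tested genes with a length the correlation was 0.10. Role and length go together here, since Atp5a1, Atp5b and Uqcrc2 have the longest subunit transcripts and 5 of the 7 assembly factors exceed 1500 bp, so the 2 cannot be told apart in these genes.

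**Figure D5:**
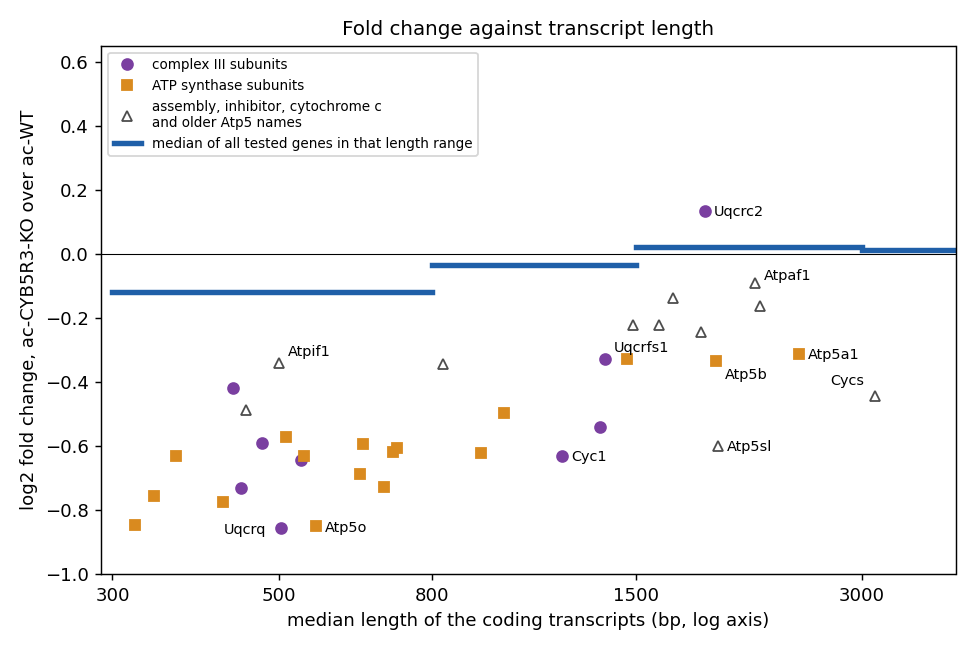
Log2 fold change of ac-CYB5R3-KO over ac-WT against the median coding transcript length (bp, log axis) for complex III subunits (purple), ATP synthase subunits (orange) and the other genes (open triangles), with the median of all tested genes in 4 length ranges as blue lines. Genes under 800 bp have a median of -0.63, where the line for all genes is at -0.12.

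Reads of near-identical gene copies could have been divided between genes, which bears on 18 of the 37 genes that have at least 1 copy elsewhere in the genome. For 11 of them the annotated copies in the table held 10% or more of the gene's own count, from 11.2% for Atp5pb to 255% for Atp5l, and their values are uncertain to that extent. The others were Uqcr11, Uqcrb, Cycs, Atp5h, Atp5o, Atp5g1, Atp5g2, Atp5md and Atpaf1. Of the 19 copies that each held at least 10% of the gene's count, 18 were themselves lower in ac-CYB5R3-KO hearts. The median log2 fold change of the 19 was -0.61, or -0.29 without the 2 high ac-WT hearts. Set apart after seeing the data, the 13 subunits with no copy had a median of -0.61 and the 13 with copies one of -0.64, and 9 and 13 of them were lower at an unadjusted p under 0.05. Leaving out the 2 high ac-WT hearts, the 13 with no copy had a median of -0.28 and 7 lower at that threshold.

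The mitochondrially encoded partners of these complexes were lower with all hearts, and not without ac-WT mice 2 and 3 in 2 of 3 genes. The gene of cytochrome b, mt-Cytb, was at 33942 ± 14498 CPM (SD, n = 6) in ac-WT and 24649 ± 3289 CPM in those of ac-CYB5R3-KO (SD, n = 6) (log2 fold change -0.46, SE 0.283, adjusted p = 0.463, edgeR). The a-subunit gene mt-Atp6 gave -0.57 (SE 0.279, adjusted p = 0.360, edgeR) and mt-Atp8 gave -0.32 (SE 0.230, adjusted p = 0.523, edgeR). None of the 3 was lower at an unadjusted p under 0.05. Without ac-WT mice 2 and 3 the values were 0.00 (SE 0.161) for mt-Cytb, -0.12 (SE 0.148) for mt-Atp6 and 0.01 (SE 0.197) for mt-Atp8.

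The neighbouring complexes lay in the same range. All 36 complex I subunits tested were lower, 32 at an unadjusted p under 0.05, with a median log2 fold change of -0.66 and values from -0.94 for Ndufb2 to -0.13 for Ndufs1. Complex IV had 13 of 15 at that threshold and a median of -0.59, from -1.19 for the heart and muscle form Cox7a1 to -0.26 for Cox6a1. Complex II had 3 of 4 and a median of -0.39, from -0.61 for Sdhb to -0.22 for Sdha. Among 8 genes that bring phosphate in and carry ATP out of mitochondria, 3 were lower at that threshold (median -0.34), from -0.92 for the heart ADP/ATP carrier Slc25a4 to -0.03 for the porin Vdac2. Of 7 further biogenesis factors of these complexes 2 were lower at that threshold (median -0.12), from -1.05 for Fmc1, which acts on the ATP synthase head, to 0.16 for Pmpca. No gene of these lists passed an adjusted p of 0.05 in edgeR. Leaving out ac-WT mice 2 and 3, which was chosen for these lists after seeing the data, the median was -0.31 for complex I with 25 genes lower at an unadjusted p under 0.05, and -0.28 for complex IV with 8. Complex II then had a median of -0.21 with 0 at that threshold, the ATP export list -0.15 with 1 and the biogenesis factors 0.04 with 1. Of the genes named above, Ndufb2 was then at -0.46, Cox7a1 at -0.50, Sdhb at -0.26, Slc25a4 at -0.42 and Fmc1 at -0.54. Those at the other end were Ndufs1 at 0.01, Cox6a1 at -0.23, Sdha at -0.04, Vdac2 at 0.02 and Pmpca at 0.18.

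Most markers of cardiomyocytes were also lower with all hearts, and their part in these results was not tested. All 10 markers were detected and 8 were lower, 4 of them (Myh6, Tnni3, Myl2 and Myl3) at an unadjusted p under 0.05. Actc1 (0.08) and Ryr2 (0.04) were higher. The median log2 fold change was -0.34 for the markers and -0.62 for the 26 subunits. Without ac-WT mice 2 and 3 these medians were -0.08 and -0.28, and 7 of the 10 markers were lower. Their summed level was 23990 to 54477 CPM in ac-WT against 17736 to 30023 CPM in ac-CYB5R3-KO hearts, highest in ac-WT mouse 2. In mean log2 CPM the difference of ac-CYB5R3-KO from ac-WT was -0.44 for the markers and -0.52 for the 26 subunits, and -0.17 and -0.28 when ac-WT mice 2 and 3 were left out. In that setting 2 markers, Tnni3 and Myl2, were lower at an unadjusted p under 0.05. Subunits minus markers within a heart gave -2.18 ± 0.121 (SD, n = 6) in ac-WT and -2.26 ± 0.144 in those of ac-CYB5R3-KO (SD, n = 6), with overlapping ranges of -2.37 to -2.01 and -2.52 to -2.13. The other 4 ac-WT hearts had a mean of -2.15.

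Red blood cell markers were higher in ac-CYB5R3-KO hearts, with 2 of 3 at an unadjusted p under 0.05 and summed levels of 677 to 6261 CPM against 114 to 2298 CPM. Their median log2 fold change was 1.61 with all hearts. Without ac-WT mice 2 and 3 it was 2.36, and all 3 were higher at that threshold. Their part in the results was not tested either. Fibroblast, endothelial and leukocyte markers had none of 14 at that threshold and overlapped between groups, and 3 of the 14 were lower at it without ac-WT mice 2 and 3. Of 5 smooth muscle and pericyte markers 2 were lower at that threshold, with summed levels of 340 to 423 CPM in ac-WT and 272 to 391 CPM in ac-CYB5R3-KO hearts. Of the skeletal muscle list Ckm, which the heart also makes, and Myh4 were lower at that threshold, and the summed levels of 690 to 1607 and 830 to 1470 CPM overlapped. Atrial markers overlapped as well (412 to 967 and 443 to 1627 CPM), a sum made up mostly of Nppa (mean 707 and 803 CPM). Myl7 was lower at that threshold, at a low level (mean 1.25 and 0.547 CPM). The 4 adipocyte markers summed to at most 3.70 CPM in any heart, and the brown fat marker Ucp1 reached at most 0.0598 CPM.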

How the data were processed

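RNA from whole hearts was sequenced as 75 bp unpaired reads from a stranded total RNA library. The authors deposited 1 table of raw read counts per gene, 12 columns for 12 mice. The submitters' processing notes name STAR, featureCounts and GRCm39, whereas the study's methods describe alignment to mm9 with FPKM values, so the build of the table could not be settled, and versions are not given in the sources used here. Counts were used as deposited. Whether strand was used in counting is not given, and reads shared with overlapping or near-identical genes may be divided differently.

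Ensembl identifiers were matched to symbols of an NCBIM37 annotation (57.8% of 53700). Gene coordinates are of NCBIM37 and promoters of GRCm38.p6 (RefSeq). Counts were filtered with filterByExpr (minimum count 10), scaled by TMM and fitted with the quasi-likelihood test of edgeR 4.0.16 (R 4.3.3) on 6 against 6 mice, with Benjamini-Hochberg adjustment over 17847 genes, and checked on simulated counts. The SE printed with an edgeR fold change is not an output of edgeR. It was derived as the absolute log2 fold change divided by the square root of the quasi-likelihood F statistic. The common biological coefficient of variation was 26.5%. Shares were compared with two-sided exact permutation tests over 924 placements (the smallest p they allow is 0.00216). Copies were searched with BLAST 2.17.0 in NCBIM37. Transcript length is the median over a gene's coding transcripts. Alternatives were DESeq2 1.42.0, other scalings and filters, a replicate block, omission of each mouse, and omission of ac-WT mice 2 and 3. Values by mouse are given for the electron-carrying and catalytic genes, the c-subunit genes, Cycs, Atpif1 and, in each role, the genes of smallest and largest p. Other genes named are the extremes of fixed lists and the markers. Members and lists were chosen with earlier results of these data known. The replicate numbers did not pair the mice. The labels do not say how many litters or batches the mice came from.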

Additional observations from a re-analysis of the deposited data

Results flagged for a closer look

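In 12 of 80 sets of 6 hearts, 1 heart stood apart from the other 5 by Dixon's criterion, which chance meets in about 1 of 20 sets. The sets share the same 12 hearts and are not independent. Of the 12, 9 were the highest ac-WT heart, mouse 2, with 822 CPM for Uqcrc1, 701 for Uqcrb, 18.8 for Bcs1l, 919 for Atp5c1, 1488 for Atp5h, 1139 for Atp5j, 1036 for Atp5j2, 603 for Atp5md and 58.8 for Atpaf1. This library also had the lowest TMM scaling factor (0.570). The other 3 were the lowest ac-CYB5R3-KO heart, mouse 3, with 29.7 CPM for Uqcc3, 342 for Atp5j and 118 for Atpif1.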

How the results depend on the processing

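With scaling by total counts, the number lower at an unadjusted p under 0.05 went from 7 to 4 complex III subunits, from 15 to 9 ATP synthase subunits, from 5 to 0 assembly and regulatory genes and from 1737 to 367 genes in all. The fitted differences of Bcs1l (0.16), Ttc19 (0.14), Uqcc1 (0.11), Atp5a1 (0.0073), Atpaf1 (0.23), Atpaf2 (0.095) and Atp5s (0.10) then turned positive, below the median of all genes at 0.26. Without ac-WT mice 2 and 3, medians relative to all genes were -0.28 for complex III subunits, -0.31 for ATP synthase subunits and -0.018 for assembly and regulatory genes, against -0.58, -0.61 and -0.24 with all mice. Assembly and regulatory genes then had 0 lower at an unadjusted p under 0.05, and all genes 831. Signs turned for Bcs1l (0.0098), Uqcc1 (0.035), Atpaf1 (0.10), Atpaf2 (0.0019), Atp5s (0.010) and the share differences of Atp5g1 (0.363 points) and Atp5g3 (-0.520 points). All genes lower at an adjusted p under 0.05 numbered 11 in the reported fit, 300 in DESeq2 (9 of them described here), 3 with median-of-ratios scaling, 20 with no filter, 4 with total counts and 5 without ac-WT mice 2 and 3. Same-numbered mice did not deviate together (r from -0.16 to 0.36 over 6 pairs), and in a fit with a replicate block the counts were 7 complex III subunits, 14 ATP synthase subunits, 2 assembly and regulatory genes and, at an adjusted p, 1 gene in all. The causes were not tested.

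Leaving out 1 mouse at a time gave 6 to 8 complex III subunits, 13 to 17 ATP synthase subunits and 2 to 5 assembly and regulatory genes lower at an unadjusted p under 0.05, with 1116 to 2092 of all genes (fewest without ac-WT mouse 2). The assembly and regulatory genes numbered 2 or 3 without ac-WT mouse 2 or 3 or without ac-CYB5R3-KO mouse 2, 3 or 5. Medians relative to all genes were -0.65 to -0.40, -0.68 to -0.43 and -0.30 to -0.13, the weakest for ATP synthase subunits without ac-WT mouse 2. Genes lower at an adjusted p under 0.05 numbered 1 to 22 of all, most without ac-WT mouse 4 and 3 or fewer without ac-WT mouse 2, 3 or 5 or any ac-CYB5R3-KO mouse, and 0 of the 37. Differences ranged from -0.031 to 0.26 for Uqcrc2 (lowest without ac-CYB5R3-KO mouse 2) and from -0.15 to 0.069 for Atpaf1 (highest without ac-WT mouse 2). Share differences ranged from -2.11 to 0.286 points for Atp5g1, from -0.00715 to 0.535 for Atp5g2 and from -0.534 to 1.68 for Atp5g3.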
